A study of Mus musculus with 6 samples.

Results

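The BCL2 family decides at the mitochondrial outer membrane whether a cell survives or starts apoptosis, and 10 of its genes were followed here in mouse bone marrow-derived macrophages. They were chosen by name: Bcl2a1a, Bcl2a1b, Bcl2a1d, Mcl1, Bcl2 and Bcl2l1 (survival genes), Bax (a pore former), and Bmf, Bcl2l11 and Bbc3 (death-promoting genes). They are 10 of the 55263 genes with counts per annotated transcript that could be summed per gene, and all 10 had enough counts to be tested. Poly-A RNA was sequenced from 3 groups of 2 libraries: control macrophages, macrophages given lipopolysaccharide (LPS), and macrophages that received LPS plus a preparation that the labels name HACA. The genotype label reads wild type for the control libraries, and for the others it holds the treatment. No dose, time, mouse strain or age is given for these groups, HACA is not spelled out, and the series title concerns a hyaluronic acid nanomedicine for psoriasis.

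As background, the survival proteins BCL2, BCL-XL (from Bcl2l1), MCL1 and A1 (from the Bcl2a1 copies) hold BAX and BAK in check. BH3-only proteins such as BIM (from Bcl2l11), BMF and PUMA (from Bbc3) bind the survival proteins in a groove and free or activate BAX and BAK, which open the outer membrane and let cytochrome c out to start the caspases. LPS, a bacterial membrane component, signals through TLR4 to NF-kB, and A1 is a textbook NF-kB target that helps activated myeloid cells survive. Mice carry several near-identical A1 genes on chromosome 9, where humans have a single BCL2A1.

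Library totals ran from 12529874 to 15379496 counts. Values below are CPM, read counts scaled to library size with edgeR's TMM factors, and a gene was called higher or lower at a Benjamini-Hochberg adjusted p under 0.05 over all 17113 genes tested with edgeR's quasi-likelihood test. Macrophage markers summed to 31036 to 49289 CPM, nearly all from Lyz2, encoding lysozyme (30358 to 47787 CPM). Adgre1, with 3.0% of its exonic bases in a single transcript, lay under 1 CPM and was not tested. Of the 7 macrophage markers tested, Mertk (−1.69 on the log2 scale, adjusted p = 0.00279) and Itgam (−3.13, adjusted p = 0.0185) were called lower in LPS than in control. Itgam was near the floor, with 29 and 26 counts in control and 2 and 2 in LPS, and 7.1% of its exonic bases in a single transcript. Spi1, the gene of PU.1, was called higher in LPS (1.84, adjusted p = 0.000891) and was lower again in LPS+HACA than in LPS (−1.17, adjusted p = 0.0139). T and NK cell markers summed to at most 0.591 CPM with Cd3e, Trbc1 and Nkg7 at 0, and mast cell markers summed to at most 0.541 CPM. Of 5 dendritic cell markers, 2 (Fscn1 and Xcr1) were called higher in LPS than in control, while Ccr7 (2.36), Zbtb46 (0.11) and Flt3 (−0.40) were not called. The list summed to 8.78 to 9.59 CPM for control, 39.2 to 48.4 CPM for LPS and 11 to 13.7 CPM for LPS+HACA. In LPS most of the sum came from Fscn1 (14.7 and 21.7 CPM) and Xcr1 (18.7 and 13.6 CPM). Of the B cell markers, Cd79b was at 0 and Ighm was called lower in LPS, with list sums of 12 to 13.6, 3.15 to 3.76 and 8.25 to 13.6 CPM in the same order. Replicate 1 held more cell cycle RNA than replicate 2 in every group (10 of 10 genes each time) and stromal markers summed to 32.3 to 49.6 CPM in replicate 1 against 1.35 to 2.31 CPM in replicate 2, while the sum of the neutrophil markers was higher in replicate 2 (37.1 to 64.3 CPM against 5.04 to 14.0 CPM). The part of these differences in the results below was not tested. In RNA from whole cultures, fewer cells of a type and less RNA per cell cannot be told apart.

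The Bcl2a1 copies carried the widest changes, so their sequences are shown first. In the GENCODE transcripts on GRCm38 the coding sequence of each copy was 519 bases long, and 12 positions differed among the 3 copies, of which 6 fell in the opening 75 bases. Those bases follow, 5′ to 3′, with capitals at the positions where the copies differ.

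Bcl2a1a: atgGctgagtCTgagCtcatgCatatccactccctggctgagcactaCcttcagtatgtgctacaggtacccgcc

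Bcl2a1b: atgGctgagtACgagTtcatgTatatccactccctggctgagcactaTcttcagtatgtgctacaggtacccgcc

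Bcl2a1d: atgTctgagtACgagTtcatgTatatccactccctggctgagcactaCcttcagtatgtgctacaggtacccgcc

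Over whole transcripts, Bcl2a1a and Bcl2a1b differed at 15 of 817 aligned bases (98.2% identity), Bcl2a1a and Bcl2a1d at 10 of 819 (98.8%), and Bcl2a1b and Bcl2a1d at 7 of 817 (99.1%). Of all stretches of 100 bases, 43.5% in Bcl2a1a, 31.1% in Bcl2a1b and 54.7% in Bcl2a1d also occurred letter for letter in another copy. A read from such a stretch does not tell the copies apart, and how shared reads were counted is not given in the sources used here, so the values of the 3 copies are uncertain as values of separate genes. Their sum is given beside them.

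RefSeq windows of 300 bases (250 before and 50 after each start, GRCm38.p6) were found for all 10 genes, with 17 windows among them. All 3 Bcl2a1 windows held TGANTCA, an AP-1-like motif present in 7.81% of 32851 such windows, and GAGGAAGT, a PU.1-like motif present in 3.2%. The stretches around these motifs are shown because the 3 copies moved together; both strands were searched and capitals mark the motifs.

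Bcl2a1a, chr9:88956752-88956877, plus strand: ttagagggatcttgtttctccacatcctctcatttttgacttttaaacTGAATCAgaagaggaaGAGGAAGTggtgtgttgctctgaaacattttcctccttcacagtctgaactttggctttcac

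Bcl2a1b, chr9:89199061-89199186, plus strand: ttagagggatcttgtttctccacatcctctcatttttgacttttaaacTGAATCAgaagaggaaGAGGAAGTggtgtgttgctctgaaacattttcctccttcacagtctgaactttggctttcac

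Bcl2a1d, chr9:88731893-88732012, minus strand: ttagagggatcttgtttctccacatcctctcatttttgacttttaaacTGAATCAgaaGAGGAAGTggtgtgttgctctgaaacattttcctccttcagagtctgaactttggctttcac

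The Bcl2a1a and Bcl2a1b stretches had the same 126 letters, and that of Bcl2a1d had 120. An NF-kB site pattern (GGG, any 2 bases, TTTCC), present in 1.63% of windows, was matched in windows of Bcl2l1, Mcl1 and Bbc3. The narrower pattern with A as the first of those free bases (0.411% of windows) was matched in none of the 17 windows. The wider GGG, any 4 bases, TCC (19.2%), which contains both, was matched in 6 of them. These were windows of Bcl2a1b, Bmf, Bcl2l11, Bcl2l1, Mcl1 and Bbc3, and the windows of Bcl2a1a and Bcl2a1d matched none of these NF-kB patterns. The FOXO pattern TGTTTAC, present in 3.65% of windows, was matched in windows of Bcl2l11 and Bbc3, both BH3-only genes; the letters around it follow, with the match or its reverse complement in capitals.

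Bcl2l11, chr2:128125791-128125837, plus strand: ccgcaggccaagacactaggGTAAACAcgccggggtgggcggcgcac

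Bbc3, chr7:16310074-16310120, plus strand: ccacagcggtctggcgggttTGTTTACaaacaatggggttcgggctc

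The patterns TTCNNNGAA (8.3% of windows, a STAT site) and TGACTCA (5.2%, the stricter AP-1 site, contained in TGANTCA) were matched in none of the 17. A match describes letters and is not a bound site, and some motifs were added after the windows had been read.

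With LPS, the Bcl2a1 copies, which are survival genes, rose, and the death-promoting gene Bmf fell, whichever processing was used. Smaller rises in the survival genes Bcl2 and Mcl1 and in the death-promoting gene Bcl2l11 were no longer called under some alternatives. The survival gene Bcl2l1 was not called. Of the 10 genes, 6 were called higher in LPS than in control (Bcl2a1a, Bcl2a1b, Bcl2a1d, Bcl2, Bcl2l11 and Mcl1) and 1, Bmf, was called lower. Over all genes tested, 30.1% were called in that comparison, 15.9% higher and 14.3% lower. When HACA was given with LPS, 5 of the 10 were called against LPS alone: Bmf was higher, and the 3 Bcl2a1 copies and Bcl2l11 were lower, against 13.4% called over all genes (5.74% higher and 7.67% lower). Between LPS+HACA and control, Bcl2a1a and Bcl2a1d were called, both higher, against 1.15% of all genes (0.894% higher). The 3 Bcl2a1 copies count as 3 genes here although they share most of their sequence, and counting them as 1 gene left 5, 3 and 1 calls. The median log2 fold change of the 10 genes was 1.0, −0.92 and 0.43 in the 3 comparisons, beside −0.05, 0.06 and 0.00 over all genes. The libraries of the 2 groups compared did not overlap for 8, 7 and 6 of the 10 genes, against 66.7%, 57.7% and 46.5% of all genes tested. LPS libraries enter both of the first comparisons, and control libraries enter 2 of the 3, so the comparisons are not independent.

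**Figure D1:**
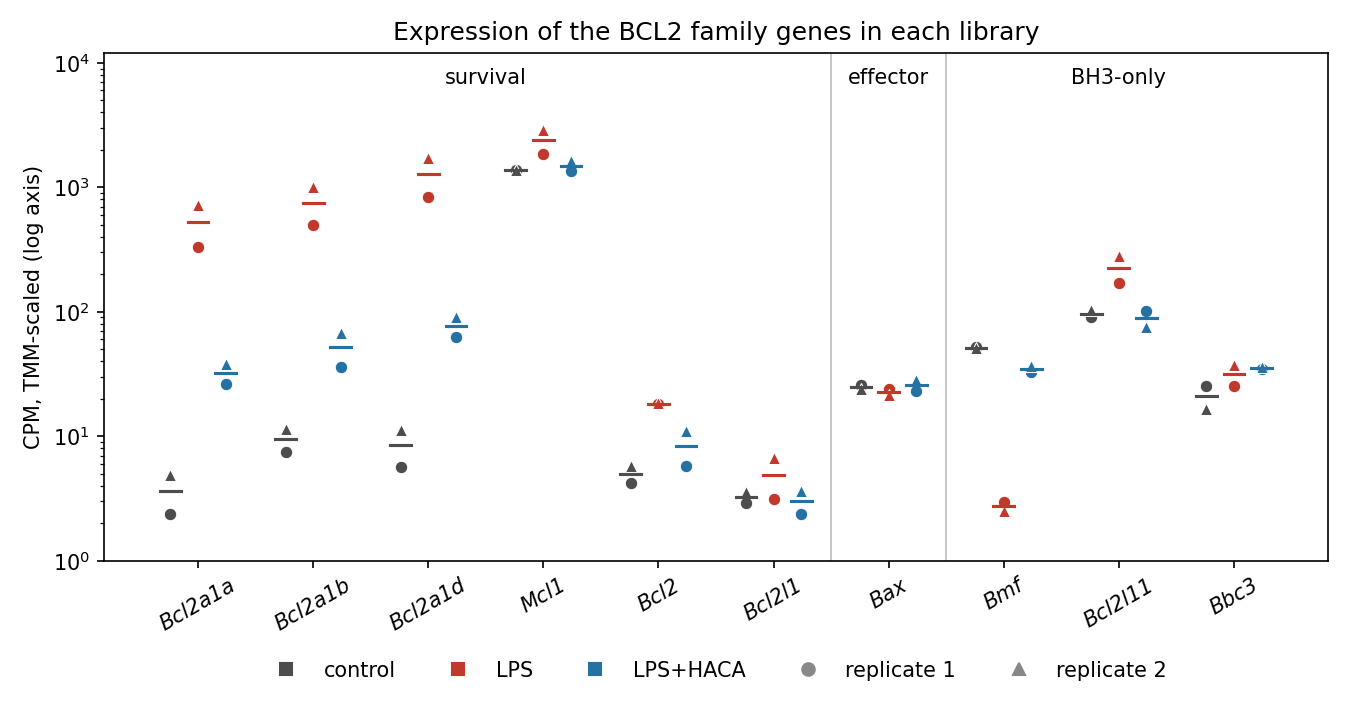
Level of each of the 10 genes in each library, in TMM-scaled CPM on a log axis; colours mark the 3 groups and marker shapes the 2 replicates. The Bcl2a1 copies sit below 12 CPM in control and at or above 331 CPM in LPS, while Bmf lies near 50 CPM in control and below 3 CPM in LPS.

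Bcl2a1d, at chr9:88723285-88731914, had 5.65 and 11.2 CPM in the control libraries, 835 and 1720 CPM in the LPS libraries, and 62.7 and 90.7 CPM in the LPS+HACA libraries. The groups did not overlap, and LPS+HACA lay between the others. The gene was 151-fold higher in LPS than in control (log2 fold change 7.24 ± 0.56 SE, adjusted p = 0.000284) and 16.7-fold lower in LPS+HACA than in LPS (−4.06 ± 0.48, adjusted p = 0.00555). LPS+HACA was still 9.08-fold above control (3.18 ± 0.47, adjusted p = 0.0288).

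Bcl2a1a, at chr9:88956900-88962419, had 2.38 and 4.89 CPM in control, 331 and 722 CPM in LPS, and 26.1 and 37.8 CPM with LPS+HACA. It kept the same order of groups without overlap. The log2 fold changes were 7.18 ± 0.58 (adjusted p = 0.000321) for LPS against control, −4.04 ± 0.50 (adjusted p = 0.00569) for LPS+HACA against LPS, and 3.13 ± 0.49 (adjusted p = 0.0363) for LPS+HACA against control.

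Bcl2a1b, at chr9:89199209-89207827, had 7.53 and 11.4 CPM in control, 497 and 998 CPM in LPS, and 36.0 and 68.2 CPM with LPS+HACA. An exon is shared with the annotated transcript Gm29094, and 50.9% of its bases belonged to Bcl2a1b alone. It was 79.0-fold higher in LPS than in control (6.30 ± 0.53, adjusted p = 0.000326) and 14.4-fold lower in LPS+HACA than in LPS (−3.84 ± 0.47, adjusted p = 0.00555). Against control, LPS+HACA was at 2.46 ± 0.45, just past the threshold (adjusted p = 0.0562), and with the replicate number as a block the adjusted p was 0.000128. This difference was also called with scaling by library totals, with DESeq2 and with no filter on low counts.

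Summed as a single gene, the 3 copies had log2 fold changes of 6.89 (adjusted p = 0.000296), −3.99 (adjusted p = 0.00551) and 2.90 (adjusted p = 0.0352) in the same order. In LPS, replicate 2 was above replicate 1 for all 3 copies, and within each replicate number the log2 fold change of Bcl2a1d over control was 7.21 and 7.26. The first 2 comparisons were called for each copy under every alternative run on it, over log2 fold changes from 6.49 to 7.79 and from −4.50 to −3.36 for Bcl2a1a, 5.62 to 6.73 and −4.38 to −3.16 for Bcl2a1b, and 6.55 to 7.83 and −4.49 to −3.37 for Bcl2a1d. The highest values over control for Bcl2a1a and Bcl2a1d (7.79 and 7.83) came without control replicate 2, and the lowest (6.49 and 6.55) with scaling by library totals; without LPS replicate 2 they were 6.51 and 6.63. Over control, LPS+HACA ranged from 2.70 to 3.74 for Bcl2a1a, 1.93 to 2.87 for Bcl2a1b and 2.76 to 3.76 for Bcl2a1d. The calls of LPS+HACA over control were lost for Bcl2a1a and Bcl2a1d without either control library (adjusted p from 0.155 to 0.281) and without either LPS+HACA library (0.053 to 0.133), and for Bcl2a1a also with limma-voom (0.0587).

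Bcl2a1b took a larger share of the 3 copies' counts in the control libraries than in the others, a description with no test over libraries. It made up 48.4% (95% Wilson interval 42.2 to 54.6) and 41.3% (36.7 to 46.1) for control, 29.9% (29.2 to 30.6) and 29.0% (28.5 to 29.5) for LPS, and 28.9% (26.9 to 30.9) and 34.7% (32.9 to 36.4) for LPS+HACA. Bcl2a1d made up 36.3% and 40.9% for control, 50.2% and 49.99% for LPS, and 50.2% and 46.1% for LPS+HACA, and Bcl2a1a stayed between 15.3% and 21.0%. The intervals of Bcl2a1b in the control libraries lay above those of the other 4 libraries, by the least margin against LPS+HACA replicate 2. The control shares rest on 38 to 172 counts per copy, and the intervals cover counting error only.

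**Figure D2:**
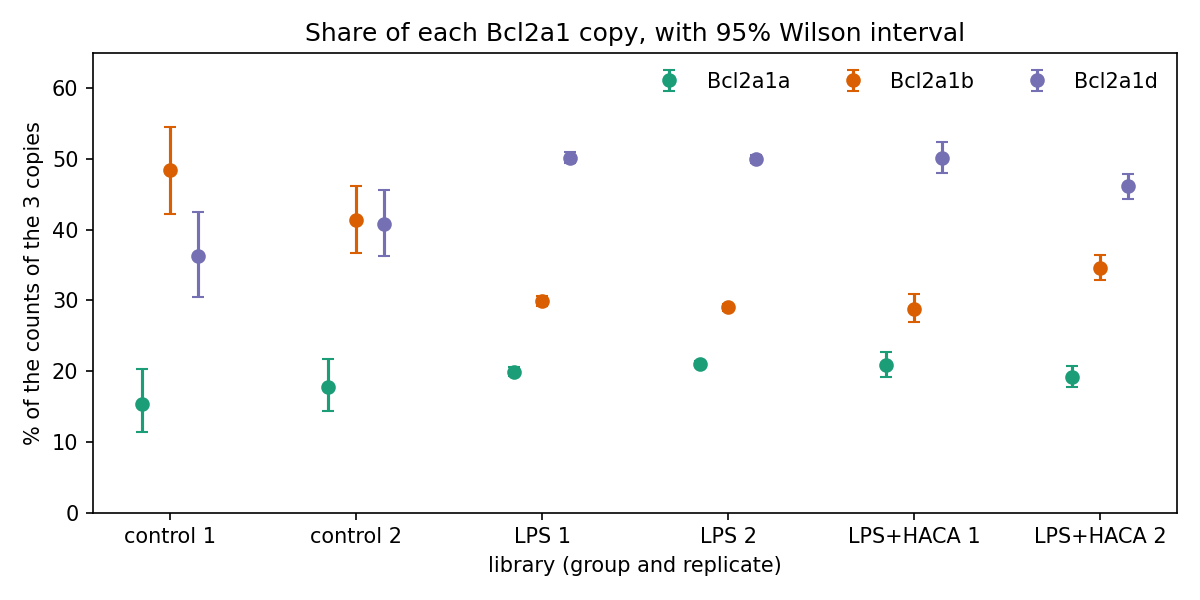
Percentage of the summed counts of Bcl2a1a, Bcl2a1b and Bcl2a1d held by each copy, per library on the horizontal axis, with 95% Wilson intervals. Bcl2a1b is the most counted copy in control replicate 1 (48.4%), and Bcl2a1d holds 46.1% to 50.2% in the 4 LPS and LPS+HACA libraries.

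Mcl1, at chr3:95658788-95663176, encodes a short-lived survival protein. It had 1381 and 1372 CPM in control, 1855 and 2904 CPM in LPS, and 1347 and 1632 CPM with LPS+HACA. Both LPS libraries lay above the other 4. Its rise with LPS was small beside that of Bcl2a1 (log2 fold change 0.79 ± 0.25, adjusted p = 0.0463), and LPS+HACA differed from LPS by −0.68 ± 0.25 (adjusted p = 0.111, and 0.0269 with the replicate block). LPS+HACA was 0.11 ± 0.25 from control (adjusted p = 0.952). The call for LPS was lost when libraries were scaled by their totals (0.12, adjusted p = 0.655), when the most counted transcript of every gene was used (0.063), and when any library other than LPS replicate 1 was left out (0.0631 to 0.207).

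Bcl2, at chr1:106538178-106714274, the founding member of the family, was a low-level gene in these macrophages, with 4.2 and 5.75 CPM in control, 18.2 and 18.4 CPM in LPS, and 5.77 and 11 CPM with LPS+HACA. Both LPS libraries lay above all others, and the LPS+HACA libraries were spread between control and LPS. It rose with LPS by 1.88 ± 0.37 on the log2 scale (adjusted p = 0.00731), a call lost without control replicate 1 (0.0775). LPS+HACA differed from LPS by −1.13 ± 0.36 (adjusted p = 0.0732), and this difference was called with the replicate block (0.012) and with DESeq2 (0.033). Its 2 coding transcripts had ratios of LPS over control of 1.95 and 1.5 on the log2 scale.

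Bcl2l1, at chr2:152780668-152831728, the gene of BCL-XL, was close to the limit of what these counts show. It had 2.89 and 3.57 CPM in control, 3.15 and 6.65 CPM in LPS, and 2.37 and 3.65 CPM with LPS+HACA, and the groups overlapped. None of its differences passed the test: 0.60 ± 0.45 for LPS against control (adjusted p = 0.346), −0.70 ± 0.45 for LPS+HACA against LPS (adjusted p = 0.328) and −0.10 ± 0.45 for LPS+HACA against control (adjusted p = 0.981). Only 18% of its exonic bases belonged to a single transcript, and the counts appeared to come from such bases.

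Bax, at chr7:45461697-45466898, encodes the pore-forming protein on which BH3-only and survival members act. It had 25.8 and 24.1 CPM in control, 23.9 and 21.3 CPM in LPS, and 23.0 and 28.4 CPM with LPS+HACA. The differences were −0.14 ± 0.24 (adjusted p = 0.686), 0.18 ± 0.24 (adjusted p = 0.636) and 0.04 ± 0.24 (adjusted p = 0.988), and none passed the test. Scaling by library totals put Bax at −0.78 in LPS (adjusted p = 0.0484), under a scaling that moved the median of all genes in that comparison to −0.69. The same scaling moved the median of all genes to 0.70 for LPS+HACA against LPS and to 0.01 for LPS+HACA against control.

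Bmf, at chr2:118528757-118549687, showed the opposite order to Bcl2a1. It had 52.1 and 50.9 CPM in control, 2.96 and 2.5 CPM in LPS, and 32.8 and 36.9 CPM with LPS+HACA, and no library overlapped another group. The means were 51.5 ± 0.85 for control, 2.73 ± 0.319 for LPS and 34.9 ± 2.92 for LPS+HACA (SD, n = 2). Bmf was 18.8-fold lower in LPS than in control (−4.23 ± 0.26, adjusted p = 0.000121) and 12.7-fold higher in LPS+HACA than in LPS (3.67 ± 0.26, adjusted p = 0.00165). LPS+HACA lay 1.48-fold below control, a difference that did not pass the test (−0.56 ± 0.22, adjusted p = 0.367). Both calls held under all 13 alternatives, with log2 fold changes from −4.87 to −4.12 and from 3.55 to 4.31. BMF is known as a sentinel that binds the dynein light chain DYNLL2 on the cytoskeleton.

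Bcl2l11, at chr2:128126038-128162547, encodes BIM, the BH3-only protein that binds every survival member. It had 90.0 and 103 CPM in control, 169 and 279 CPM in LPS, and 102 and 75.3 CPM with LPS+HACA. Both LPS libraries lay above the other 4, and control and LPS+HACA overlapped. It rose with LPS by 1.21 ± 0.29 (adjusted p = 0.0168) and was lower in LPS+HACA than in LPS by −1.34 ± 0.29 (adjusted p = 0.025). Against control, LPS+HACA was at −0.12 ± 0.29 (adjusted p = 0.957). Both calls were lost with scaling by library totals (0.54, adjusted p = 0.146, and −0.66, adjusted p = 0.108) and without either control library (0.0616 to 0.13), and the second also without either LPS+HACA library (0.0819 and 0.138).

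Bbc3, at chr7:16308393-16318205, encodes PUMA, a target of p53. It had 25.5 and 16.4 CPM in control, 25.5 and 37.6 CPM in LPS, and 34.5 and 36.2 CPM with LPS+HACA. Control replicate 1 and LPS replicate 1 were nearly equal, and both LPS+HACA libraries lay between the LPS libraries. None of the differences passed the test: 0.59 ± 0.30 (adjusted p = 0.177), 0.16 ± 0.30 (adjusted p = 0.748) and 0.75 ± 0.30 (adjusted p = 0.379).

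**Figure D3:**
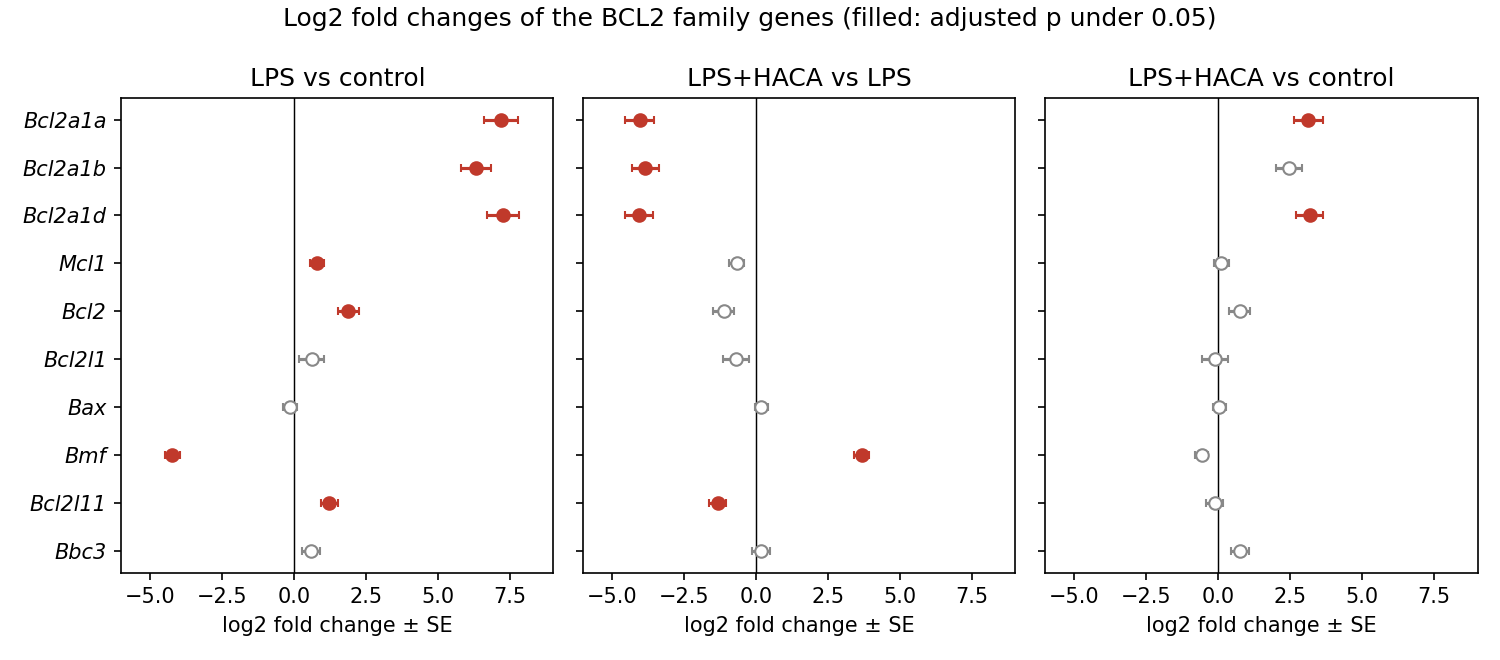
Log2 fold change ± SE of each gene in the 3 comparisons, 1 panel each; filled points have an adjusted p under 0.05. Bmf and the Bcl2a1 copies lie on opposite sides of 0 in the first 2 panels, at −4.23 against 6.30 to 7.24 and at 3.67 against −4.06 to −3.84.

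The most counted transcripts of Bmf and Bcl2l11 had the direction of their genes. The coding transcript Bmf-201 held 83.3% to 96.2% of the Bmf counts, with 772 and 717 counts for control, 25 and 25 for LPS, and 499 and 492 for LPS+HACA. All 5 counted transcripts of Bcl2l11 had a higher group CPM in LPS than in control (log2 ratios from 0.58 to 1.37), and the coding Bcl2l11-205 held 70.3% to 73.2% of the gene's counts in every library. Bbc3-201 held 71.8% to 85.5% of the Bbc3 counts and Bax-203 held 86.8% to 95.5% of the Bax counts. Each transcript appeared to be counted over the bases it shares with no other. This was inferred from where the counts fell and is not stated in the sources used here. These ratios and shares carry no test.

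**Figure D4:**
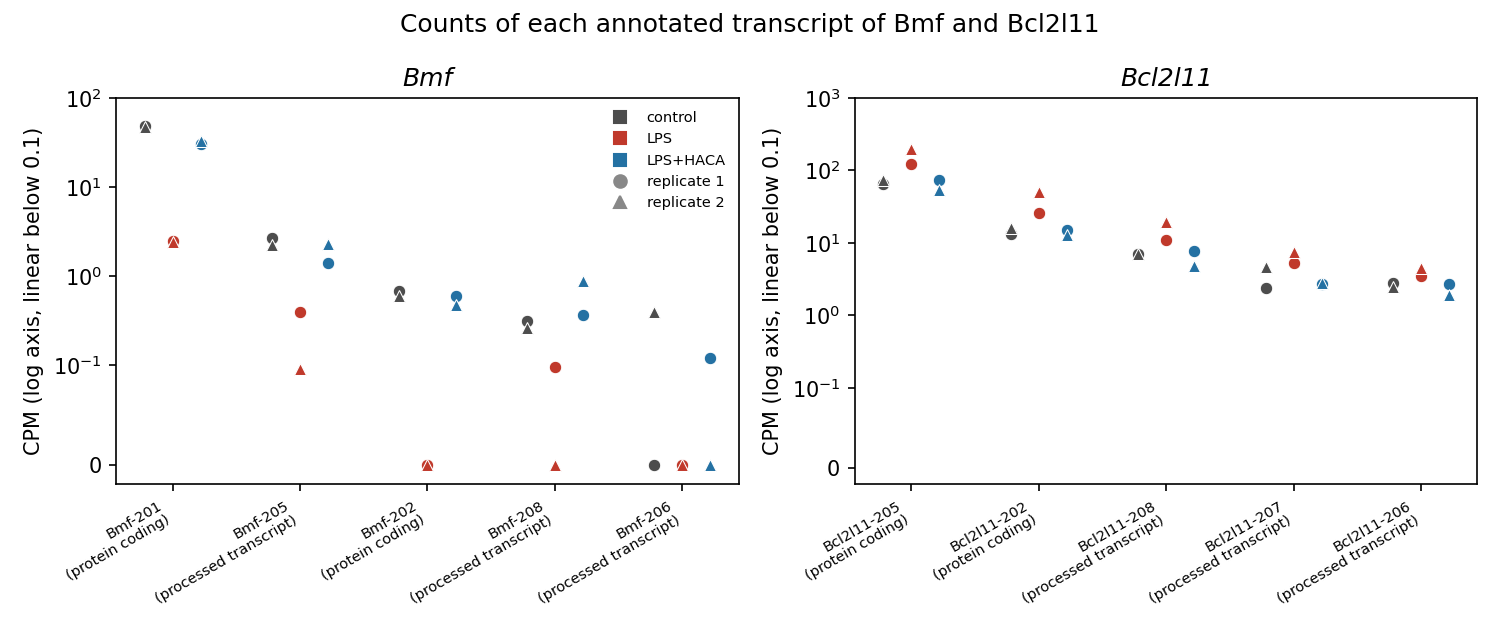
CPM of each annotated transcript of Bmf (left) and Bcl2l11 (right) with counts, per library, on an axis that is linear below 0.1 and logarithmic above; colours mark the groups and marker shapes the replicates. Bmf-201 and Bcl2l11-205 hold most of each gene's counts in all 6 libraries.

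Levels can be compared between genes per length, as CPM per kilobase of the bases that belong to a single transcript. That these were the bases counted is an inference, and the order below depends on it. In control, Mcl1 led with 539 and 536 CPM per kilobase, followed by Bax with 35.1 and 32.8. Bmf, Bcl2l11, Bcl2a1b and Bbc3 came next, between 15.42 and 27.3 CPM per kilobase, with ranges that overlapped in a chain, although Bmf (25.6 and 25.0) lay above Bbc3 (24 and 15.42). Bcl2a1d (6.54 and 13.0) lay above Bcl2a1a (2.91 and 5.98) and Bcl2l1 (3.49 and 4.32), which overlapped, and Bcl2 was lowest with 0.544 and 0.745. The Bcl2l1 values leave out its transcripts that span nearly the whole gene, which had no counts. In LPS the order changed: Bcl2a1b (1195 and 2399 CPM per kilobase), Bcl2a1d (968 and 1993), Mcl1 (725 and 1134) and Bcl2a1a (405 and 882) made up the top and overlapped in a chain. Bmf was lowest there, with 1.45 and 1.23 CPM per kilobase, under Bcl2 with 2.36 and 2.38. In LPS+HACA, Mcl1 was first again (526 and 637), Bcl2a1b (86.6 and 164) and Bcl2a1d (72.6 and 105) followed and overlapped, and Bmf (16.1 and 18.1) was back above Bcl2l1 (2.86 and 4.41) and Bcl2 (0.747 and 1.42). The authors' deposited FPKM, which divide by whole transcript length, gave Bcl2a1d 968 and 1900, Bcl2a1b 608 and 1165, and Mcl1 543 and 810 in the LPS libraries. The order of the first pair therefore depended on the length used. So did the order in control, where the FPKM put Bcl2l11 (31.9 and 39.3) above Bax (25.5 and 24.2). There the FPKM of Bmf (14.0 and 13.8) and Bcl2a1b (9.19 and 13.6) lay below those of Bbc3 (19.0 and 15.1).

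The rest of the family was measured by a list of 16 genes, of which 8 had enough counts to be tested and 1 was called in each direction in LPS. Over all genes tested, 15.9% were called higher in LPS and 14.3% lower. Bcl2a1c, a further and shorter A1 copy, had 0 counts in control, 55 with LPS and 3 with LPS+HACA, summed over 2 libraries. Its counts were at least 27.7-fold higher in LPS than in control, taking 3 counts over the group as the floor for control. The sequence of Bcl2a1c was not compared with those of the other copies. Whether its few counts came from reads of the far more abundant copies was not tested, so its value as a separate gene is uncertain too. Bnip3l, whose protein NIX marks mitochondria for removal, had 4.96 and 3.77 CPM in control, 1.08 and 0.771 CPM in LPS, and 2.31 and 3.52 CPM with LPS+HACA. It fell with LPS (−2.23 ± 0.45, adjusted p = 0.0082) and was higher in LPS+HACA than in LPS (1.64 ± 0.45, adjusted p = 0.0497). The first call was lost without control replicate 1 (0.0626) and with the most counted transcript (0.231), and the second was lost whichever library was left out (0.0504 to 0.231). Bak1, the partner of Bax, had 0.331 to 1.38 CPM, with 6.6% of its exonic bases in a single transcript, and was at 0.96 ± 0.80 in LPS (adjusted p = 0.403). Bcl2l2, Bid, Bad, Bnip3 and Bcl2l13 were at 0.37, −0.16, −0.06, −0.53 and 0.24 in LPS, and none was called. Pmaip1, the gene of NOXA, had 1 and 1 counts in control, 20 and 9 with LPS and 9 and 7 with LPS+HACA. Only 1.7% of its exonic bases belonged to a single transcript, and Pmaip1 was removed by the filter on low counts. Without that filter it was called higher in LPS (adjusted p = 0.000782).

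Survival genes linked to NF-kB had the same order of group means as the Bcl2a1 copies, except that scaling by library totals put Traf2 and Relb at 0.041 and 0.056 in LPS+HACA against LPS. Of 11 such genes, 10 were called higher in LPS than in control, and 7 were called lower in LPS+HACA than in LPS, with median log2 fold changes of 2.53 and −1.42. Over all genes tested, 15.9% and 7.67% were called in those directions. The list was chosen with earlier results of these data known. Tnfaip3, which encodes the NF-kB brake A20, had 18 and 27.6 CPM in control, 452 and 696 CPM in LPS, and 82.4 and 99.7 CPM with LPS+HACA. It rose by 4.65 ± 0.34 with LPS (adjusted p = 0.000169), and the next largest rises were in Pim1, a survival kinase (4.36 ± 0.38), and Traf1, an adaptor of TNF receptors (4.34 ± 0.41). Relb was the gene not called (1.23 ± 0.54, adjusted p = 0.122), and with the replicate block it was called too (0.00876). Against control, Pim1 (2.07 ± 0.35, adjusted p = 0.0372) and Tnfaip3 (2.0 ± 0.31, adjusted p = 0.0286) were called higher in LPS+HACA, as Bcl2a1a and Bcl2a1d were. Of all genes tested, 0.894% were called higher there. In that last comparison 2 of the 11 were called, 8 with the replicate block, 8 with DESeq2, and 0 to 8 when single libraries were left out. With the replicate block, 9 of the 11 were called lower in LPS+HACA than in LPS. Scaling by library totals left 9 higher and 5 lower in the first 2 comparisons, and leaving out single libraries left 9 to 10 higher and 3 to 8 lower.

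Genes that act after BAX and BAK were called in both directions. Of 10, 2 were called higher in LPS (Cycs and Xiap) and 3 lower (Endog, Htra2 and Casp9). Over all genes tested, 15.9% were called higher in LPS and 14.3% lower. For LPS+HACA against LPS those shares were 5.74% and 7.67%. Cycs, the cytochrome c released through the pore, had 22.3 and 21.2 CPM in control, 96.2 and 93.1 CPM in LPS, and 31.8 and 30.2 CPM with LPS+HACA, and rose by 2.12 ± 0.21 (adjusted p = 0.000499). Xiap, which inhibits caspases, rose by 1.12 ± 0.26. Endog, a mitochondrial nuclease, was at −2.22 ± 0.38, Htra2, a protease released with cytochrome c, at −1.52 ± 0.32, and Casp9, the initiator caspase, at −0.96 ± 0.25. In LPS+HACA against LPS, Cycs (−1.61 ± 0.21) was called lower and Htra2 (1.55 ± 0.32) higher. With the replicate block Apaf1 was also called lower in LPS (0.0316) and Casp9 higher in LPS+HACA than in LPS (0.0398). The calls of Xiap and Casp9 in LPS were lost without either control library, that of Casp9 also without LPS replicate 2 (0.0558), and that of Xiap also under library totals (0.48, adjusted p = 0.204) and with the most counted transcript (0.0595). The call of Htra2 in LPS was lost without control replicate 2 (0.0885) and in LPS+HACA without any control or LPS+HACA library (0.0567 to 0.125), and that of Cycs in LPS+HACA without LPS+HACA replicate 1 (0.0516). Leaving out single libraries left 1 to 2 of the 10 higher and 1 to 3 lower in LPS.

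Of 9 tested regulators and partners of BH3-only genes, 2 were called higher in LPS and 2 lower. Over all genes tested these shares were 15.9% and 14.3%, and 5.74% were called higher in LPS+HACA than in LPS. Foxo3, a transcription factor known to drive Bcl2l11 and Bbc3, had 263 and 200 CPM in control, 56.1 and 63.0 CPM in LPS, and 150 and 99.7 CPM with LPS+HACA, and was at −1.96 ± 0.27 in LPS (adjusted p = 0.00178). Its direction in LPS was that of Bmf and opposite to that of Bcl2l11. Trp53 was at −1.24 ± 0.34, and Cdkn1a, a p53 target, at 2.41 ± 0.39, with Ddit3, the stress factor CHOP, at 1.92 ± 0.44. In LPS+HACA against LPS, Trp53 (1.46 ± 0.34, adjusted p = 0.0304) and Foxo3 (1.07 ± 0.27, adjusted p = 0.0371) were called higher, and with the replicate block Cdkn1a (0.0323) and Atf4 (0.0355) were called lower beside them. The calls of Trp53 and Ddit3 in LPS were lost without either control library, and that of Trp53 also without LPS replicate 1 (0.0707). Both LPS+HACA calls were lost whichever library was left out, except that of Trp53 without LPS replicate 2. Under library totals 2 genes were higher and 5 lower in LPS, and 4 were higher in LPS+HACA than in LPS. The dynein light chains Dynll1 and Dynll2 were not called (−0.45 ± 0.31 and −0.31 ± 0.31 in LPS).

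Of 6 genes for the turnover of the MCL1 protein, Usp9x, a deubiquitinase that stabilises MCL1, was the gene called in the test used throughout. Over all genes tested, 30.1% were called in LPS against control and 13.4% in LPS+HACA against LPS. Usp9x had 562 and 614 CPM for control, 1326 and 1154 CPM for LPS, and 728 and 776 CPM with LPS+HACA. It rose by 1.08 ± 0.19 in LPS (adjusted p = 0.00483) and was at −0.72 ± 0.19 for LPS+HACA against LPS (adjusted p = 0.0434). Under library totals neither was called (0.44, adjusted p = 0.132, and −0.09, adjusted p = 0.782), and the second call was also lost with the most counted transcript (0.0547) and when any library other than LPS replicate 2 was left out (0.057 to 0.263). The first call was lost without control replicate 1 (0.0689). With the replicate block Btrc, part of a ubiquitin ligase, was called higher in LPS+HACA than in LPS (1.09, adjusted p = 0.0171). Under library totals, 2 other genes of this list were called in LPS against control and 1 in LPS+HACA against LPS.

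**Figure D5:**
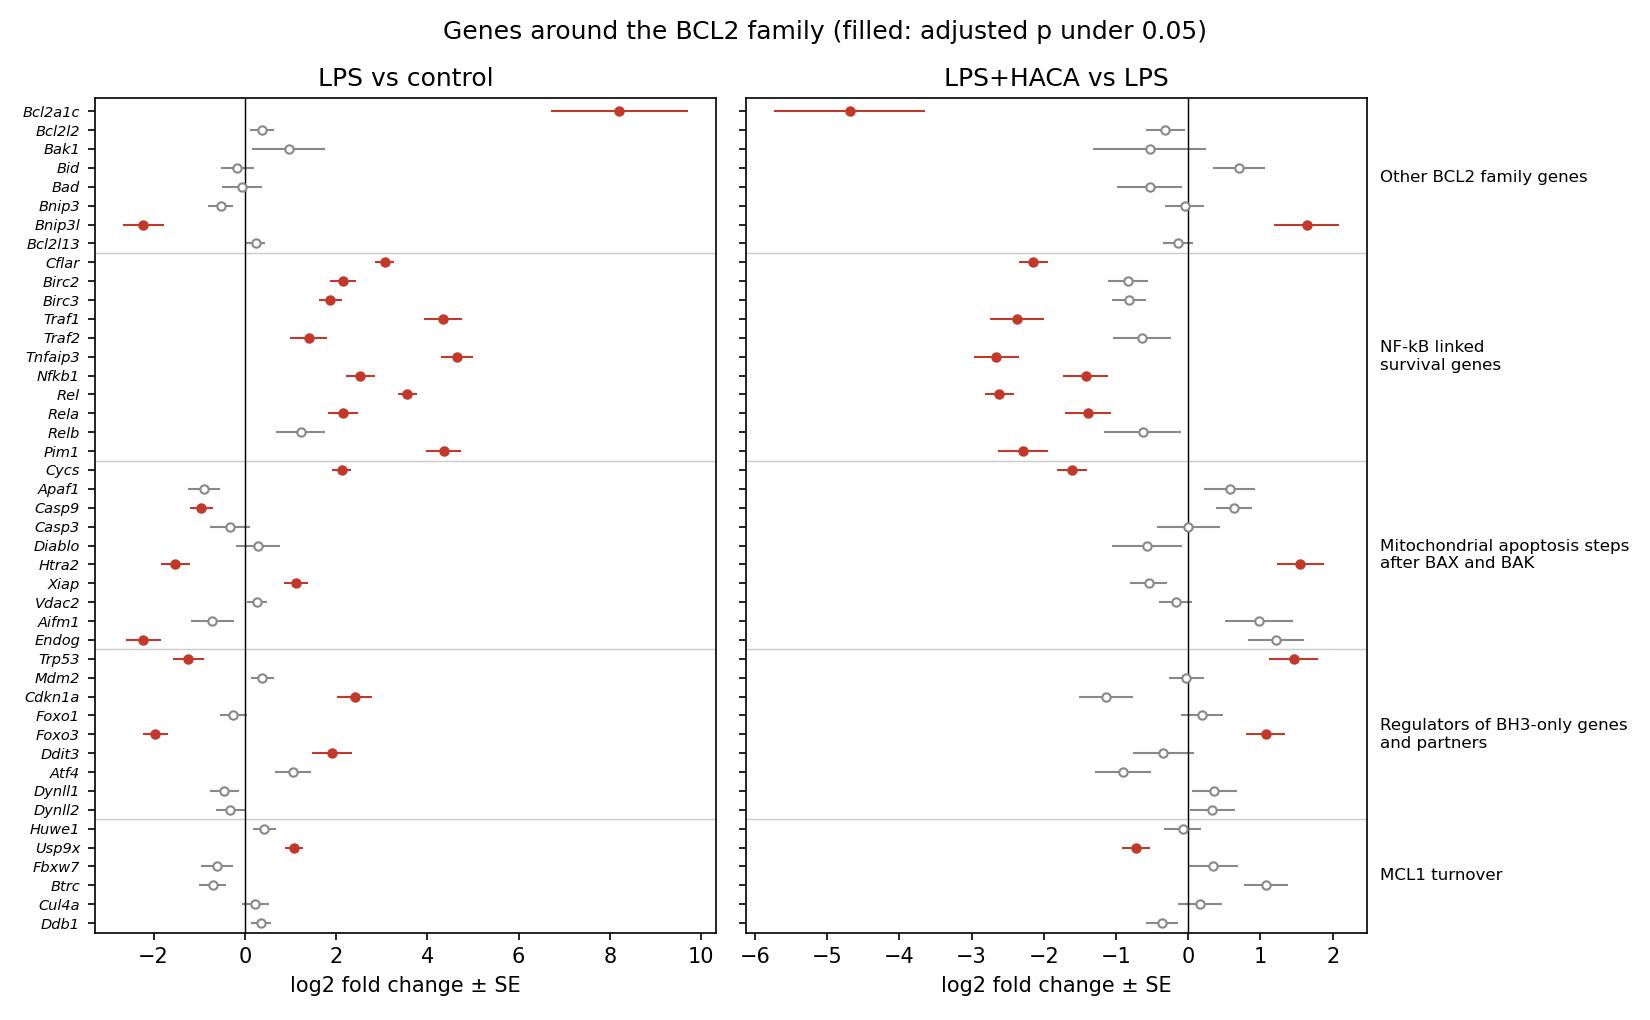
Log2 fold change ± SE of the tested genes reported from the lists around the BCL2 family, grouped by list on the vertical axis, for LPS against control and LPS+HACA against LPS; filled points have an adjusted p under 0.05. The NF-kB linked genes lie above 0 in LPS against control, with Tnfaip3 at 4.65, and at or below −0.63 in LPS+HACA against LPS.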

How the data were processed

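Poly-A RNA was sequenced from 6 libraries, per the labels' protocols. Per the submitters' processing notes, STAR 2.5.4b, Trim Galore and CASAVA, and DESeq2 1.26.0, edgeR 3.28.1 and limma, were used, on GRCm38 and GRCh38, with no roles stated. How reads were counted, and where shared reads went, is not given in the sources used here. Deposited by the authors were raw read counts per transcript and FPKM values, per the file headers, and the FPKM were printed only as a comparison of levels.

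Counts were summed per gene with GENCODE vM21 symbols: 141524 of 142647 transcripts matched, and the 1123 others, at most 0.115% of the counts in any library, were left out. Transcripts with at least 100 bases annotated to no other transcript held 99.2% of the counts, so genes with overlapping transcripts appeared to be measured over part of their exons. Libraries were scaled with TMM, filtered with filterByExpr, and fitted with edgeR 4.0.16 (quasi-likelihood, robust) in R 4.3.3, all 6 together with group as the only term and 3 residual degrees of freedom. P-values were adjusted by Benjamini-Hochberg over 17113 genes. SEs were obtained from the size of the log2 fold change and the F statistic, as their ratio after taking the root of F. The procedure was tested on simulated data.

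The members and lists were chosen with earlier results of these data known. All members are named; of each list, the tested members of the other BCL2 family genes, and up to 3 called genes per list and direction, are named, and Relb, Pmaip1, Apaf1, Atf4, Btrc, the dynein light chains and the cell type markers were named after their values were seen. Nothing in the labels says whether replicates came from separate cultures or mice, and the p-values measure the spread between these 6 samples only, which may be technical. Libraries with the same replicate number deviated together from their group means (r = 0.308 for control and LPS, 0.509 for control and LPS+HACA, 0.498 for LPS and LPS+HACA, across 17113 genes). The main fit left the replicate number out, so its SEs and adjusted p-values do not use this pairing. The replicate block was the alternative that did. The alternatives were scaling by library totals, DESeq2 1.42.0, limma-voom (limma 3.58.1), no filter, the replicate block, the most counted transcript per gene, the Bcl2a1 copies summed, and each library left out. Some genes of the lists are not reported here.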

Additional observations from a re-analysis of the deposited data

How the results depend on the processing

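Over the 10 genes and 3 comparisons, 381 log2 fold changes were recomputed; 332 kept their direction and side of the threshold, 25 were no longer called, 14 became called and 10 changed sign, all 10 in differences that were not called. The members called for LPS against control numbered 7, and 4 to 7 with single libraries left out. For LPS+HACA against LPS they numbered 5, then 4 by library totals, 6 with DESeq2, 7 with no filter and 3 with the Bcl2a1 copies summed. That number also moved when single libraries were left out. For LPS+HACA against control they numbered 2, then 1 with limma-voom, 1 with the copies summed, and 0 to 3 with single libraries left out; at an unadjusted p under 0.05 edgeR's test gave 3 to 4 members in the settings with 0, and DESeq2 on all libraries called 3. Library totals turned Bcl2l1 to −0.080 and Bbc3 to −0.076 for LPS against control. Leaving out single libraries moved Bcl2l1 from −0.031 to 1.05 for LPS against control and Bbc3 from −0.090 to 0.47 for LPS+HACA against LPS, and, for LPS+HACA against control, Bcl2l11 from −0.34 to 0.080, Bcl2l1 from −0.44 to 0.20, Mcl1 from −0.029 to 0.27 and Bax from −0.12 to 0.21. The replicate block gave 7, 7 and 3 members called; beside Bcl2, Mcl1 and Bcl2a1b it changed no member's call. Over all genes, the calls numbered 5157, 2295 and 197, against 6890, 4311 and 935 with the replicate block, 6528, 4023 and 150 by library totals (1417 higher and 5111 lower for LPS against control), 6309, 3600 and 911 with no filter, 5478, 3020 and 666 with DESeq2, and 2149 to 5841, 368 to 3410 and 0 to 606 with single libraries left out. Where leaving out a library left a group with 1, that library was assumed to vary like the others. With 2 libraries per group, and few counts for Bcl2l1 and Bcl2, small differences could not be shown at this depth.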
